A study of Elopichthys bambusa with 12 samples.

Results

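Livers of yellowcheek carp (Elopichthys bambusa), a predatory freshwater fish of the carp family, were compared after a short fast. The comparison set 3 liver libraries of fish starved for 8 days against 3 liver libraries of fish given a commercial diet over the same 8 days, 6 of the 12 libraries of the series. A further 3 libraries, of fish fed for 28 days, served as a second view of the fed state, and 3 libraries of fish starved for 28 days completed the series. All fish are described only by feeding and time, and no label gives their age, sex or stock. Nor do the labels say whether a library came from a single fish or from a pool, so the spread behind the p-values is that between these libraries and may be technical. Of 42353 assembled transcript features, 32212 had enough counts to be tested, and all of these were included.

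The liver of a fish stores glycogen and fat, makes most plasma proteins and converts amino acids to glucose. In a fasted fish it is known to turn from building fat to burning it and to releasing glucose. In many fishes of the carp family exocrine pancreas tissue lies in or around the liver and makes digestive enzymes in step with feeding. The deposited identifiers come from a de novo assembly and are not paired with gene names in the files, so neither liver markers nor pathway genes could be looked up, and the tissue label was not checked against its markers. The results therefore describe features by size of change, abundance, share of counts, length and identifier. In a bulk sample, fewer cells of a type and less RNA per cell cannot be told apart.

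The 9 libraries of the fed 8-day, fasted 8-day and fed 28-day groups held 16785827 to 19830957 estimated counts each. No pair within these groups agreed within sampling noise, with chi-square values of 12.2 to 65.2 per feature. The fed 8-day libraries stood apart from all other groups. Across all 32212 features, which share libraries and are no replicates, log2 CPM (estimated counts over library size, with TMM scaling of that size) correlated with a mean r of 0.745 between fasted and fed 8-day libraries over 9 pairs. The mean r was 0.809 between fasted 8-day and fed 28-day libraries and 0.739 between the fed groups. At 10 CPM or more, the fasted 8-day group was more variable than its control, with a median SD of log2 CPM of 0.315 against 0.165 over 6921 features. Replicate 2 lay farthest from the group median in 49.8% of these features in the fasted group, and replicate 3 in 47.7% in the fed group.

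After 8 days without food, 25.3% of the tested liver transcriptome differed from that of fed fish. By edgeR's quasi-likelihood test with Benjamini-Hochberg adjustment at 0.05, 4278 features (13.3% of those tested) were higher and 3885 (12.1%) lower in fasted fish. Most changes were moderate. Where a feature had no count in one of the groups, its fold was taken against a floor of 3 counts per library, a lower bound. On that footing 740 risen features changed by less than 2-fold, 1652 by 2 to 4-fold, 1010 by 4 to 8-fold and 876 by at least 8-fold. Of the fallen features, 710, 1737, 746 and 692 lay in the same ranges. The median log2 fold change was 1.82 for risen and -1.62 for fallen features with those features at their bound, and 1.86 and -1.62 as fitted, while the median over all tested features was 0.16. The fasted and fed 8-day libraries did not overlap for 4168 of the risen and 3838 of the fallen features, whereas among all tested features 43.8% did not overlap, 22.6% higher and 21.2% lower in fasted fish.

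The kind of change depended on how abundant a feature was. Classes were set by the higher of the 8-day group means. Of the 8119 features under 1 CPM, 4.35% rose and 0.788% fell. Of the 17172 features at 1 to 10 CPM, 12.4% rose and 8.91% fell. At 10 to 100 CPM the order turned, and 25.1% of 5811 features rose while 33.9% fell. This excess of fallen features in the 10 to 100 CPM class was present in all 20 alternatives tried with the 8-day control. The 940 features at 100 to 1000 CPM were nearly balanced, with 29.6% risen and 30.6% fallen. Among the 170 most abundant features, over 1000 CPM, 33.5% rose and 18.2% fell, and risen outnumbered fallen in the same 20 alternatives. With the fed 28-day group as control the order over 1000 CPM turned, with 13 risen and 33 fallen, while at 10 to 100 CPM 476 rose and 649 fell. The excess of rises under 10 CPM was not followed through the alternatives. The count filter used all 4 groups, so features may have entered these low classes through the 28-day libraries. With only the 8-day libraries fitted, 26948 features were tested over all classes. Of these 3333 rose and 3817 fell, against 4278 and 3885 in the main fit.

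**Figure D1:**
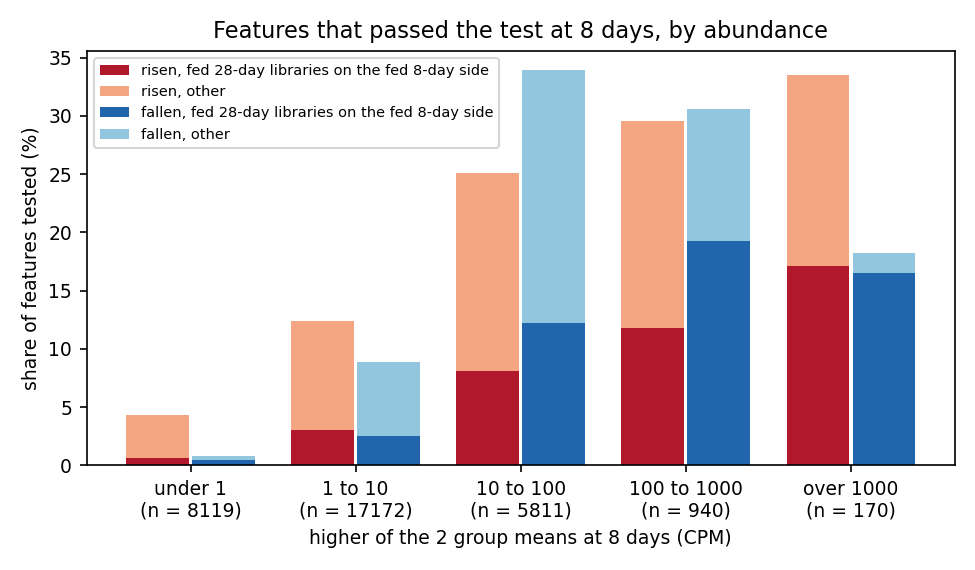
Share of the tested features (%) that rose (red) or fell (blue) in fasted against fed 8-day livers, by the higher 8-day group mean in CPM, with the number tested under each class. The dark part of each bar holds the features whose 3 fed 28-day libraries also lay on the fed side, and it makes up most of the fallen bar over 1000 CPM (28 of 31 features).

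At the top of the abundance range the rises were shallow and the falls steep. The 57 risen features over 1000 CPM had a median log2 fold change of 0.97, 31 of them changed by less than 2-fold and 1 by 8-fold or more. The 31 fallen features over 1000 CPM had a median log2 fold change of -5.15, and 24 of them fell by 8-fold or more. In the classes from 10 to 1000 CPM the medians were close to each other in size, at 1.47 and -1.44 for 10 to 100 CPM and at 1.4 and -1.73 for 100 to 1000 CPM.

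Because the abundant features carry most reads, the change was also described as a share of all counts. These shares belong to features chosen on the same libraries and are a description. The risen features held 15.7%, 16.5% and 17.3% of all counts in the fed 8-day libraries and 37.8%, 41.4% and 37.1% in the fasted ones. The fallen features held 27.4%, 27.1% and 22.4% in fed and 6.02%, 6.52% and 5.91% in fasted fish. A few features made up much of these shifts. Out of the gain of 22.27 percentage points, 39% came from 10 features, and 22 features together reached 50%. Of the change of -19.47 points in the fallen features, 32.4% came from 10 features, and 35 reached 50%. The gain lay mainly in small changes, since features with a fitted rise under 4-fold contributed 6 points (under 2-fold) and 11.7 points (2 to 4-fold), against 1.99 points from those at 8-fold or more. The loss lay mainly in large ones, with -11.2 of the -19.47 points in features that fell 8-fold or more.

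The fed 28-day libraries were then used to ask which of these changes set fasted fish apart from fed fish of both days. A change was counted as remaining when the 3 fasted 8-day libraries did not overlap the 3 fed 8-day libraries and all 3 fed 28-day libraries lay on the fed side of the fasted ones. This held for 1187 of the 4278 risen features (27.7%) and for 1391 of the 3885 fallen features (35.8%), which are 3.68% and 4.32% of all features tested. Among all tested features, whether they passed or not, the fed 28-day libraries lay wholly below the fasted 8-day ones in 13.8% and wholly above in 14.5%. Among all features whose 8-day groups did not overlap, passed or not, the fed 28-day libraries lay on the fed side in 27.3% of those higher and 27.8% of those lower in fasted fish. With TMM scaling the share that remained was thus near that background for risen and above it for fallen features. With library size alone the share was 36.3% for risen and 27.8% for fallen features, so which direction remained more often depended on the scaling. The background is given with TMM scaling only, so it cannot be set against the shares with library size alone. The TMM factors of the fed 28-day libraries, 0.835 to 0.917, lay below those of all 8-day libraries, 0.937 to 1.202. The same fasted libraries stand on one side of all these counts, so no test was made of them.

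The position of the fed 28-day libraries was then described for all features that passed. They reached into the fasted 8-day range for 2422 risen features (56.6%) and 2192 fallen features (56.4%). They lay beyond all fasted 8-day libraries for 662 risen (15.5%) and 298 fallen features (7.7%). Among all tested features they lay wholly above the fasted 8-day libraries in 14.5% and wholly below in 13.8%. On a log2 scale running from 0 at the fed 8-day mean to 1 at the fasted 8-day mean, the fed 28-day mean stood at a median of 0.89 for risen features (quartiles 0.53 and 1.22). It stood at 0.82 for fallen features (quartiles 0.49 and 1.06). With library size alone the medians were 0.74 and 0.94. On the TMM scale the fed 28-day mean was nearer to the fed 8-day than to the fasted 8-day mean in 989 risen (23.1%) and 1006 fallen features (25.9%). The other positions were not counted for all tested features, and the ends of the scale are the libraries that chose these features. Nothing particular to the features that passed is therefore read from them.

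**Figure D2:**
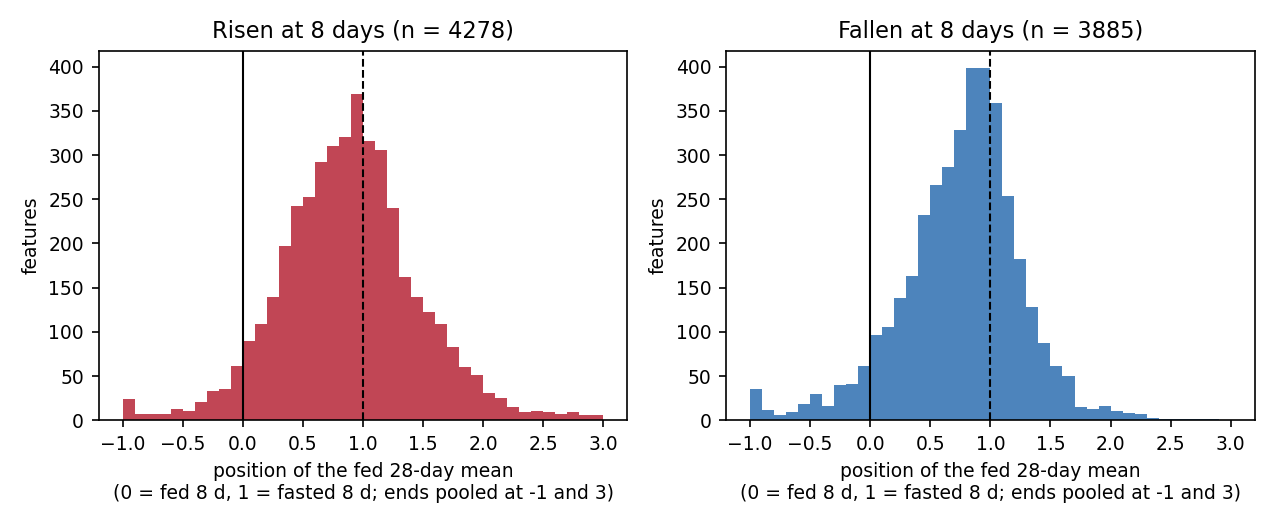
Position of the fed 28-day mean for each risen (left) and fallen (right) feature on a log2 scale where 0 (solid line) is the fed 8-day mean and 1 (dashed line) the fasted 8-day mean, with the number of features on the vertical axis and values beyond -1 and 3 pooled at the ends. Both distributions peak near the fasted value, with medians of 0.89 and 0.82.

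Within the remaining sets, the fed groups were often not alike either. In 571 of the 1187 risen features the range of the fed 28-day libraries overlapped that of the fed 8-day ones. In 554 it lay between the fed and the fasted 8-day libraries, and in 62 it lay past the fed 8-day libraries, away from the fasted ones. For the 1391 fallen features these numbers were 480, 792 and 119. The same split was not made for all tested features, so nothing particular to the remaining features is read from it. The risen remaining features had a median log2 fold change of 1.76 against fed 8-day and 1.08 against fed 28-day fish, while the fallen ones had -1.64 and -1.04. Only a part of the remaining features also passed edgeR's test against the fed 28-day group, 476 of the risen and 683 of the fallen. Among all features, that comparison called 1100 features higher (3.41% of those tested) and 1430 lower (4.44%), and it uses the same fasted libraries.

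The share of changes that remained differed between abundance classes. Among risen features the share that remained was 13.9% under 1 CPM, 24.7% at 1 to 10 CPM, 32.4% at 10 to 100 CPM, 39.9% at 100 to 1000 CPM and 50.9% over 1000 CPM. Among fallen features it was 62.5% under 1 CPM (40 of 64 features), and then 28.3%, 36%, 62.8% and 90.3% in the same classes, so that it increased with abundance from 1 CPM upward but not below. Among all non-overlapping features, whether they passed or not, the share with the fed 28-day libraries on the fed side also differed between classes. In the 4 classes up to 1000 CPM it was 14.6%, 27.5%, 32.6% and 39.1% of features higher in fasted fish. Of features lower in fasted fish it was 30.8%, 19.8%, 33.3% and 58.4%. Over 1000 CPM it was 46.3% of 67 features that were higher and 79.1% of 43 that were lower in fasted fish. With TMM scaling the risen shares thus lay near this background in each class. The fallen shares lay above it, most so under 1 CPM. The count filter used all 4 groups, so features under 1 CPM at 8 days may have entered through high 28-day libraries. That class held 0.345% of the counts in fed 8-day, 0.436% in fasted 8-day and 0.508% in fed 28-day libraries. Nothing is therefore read from the shares under 1 CPM. By size of change the share that remained varied less, from 23.9% to 31.1% over the fitted fold classes of risen features and from 32.1% to 45.2% over those of fallen features.

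In counts, the remaining features made up 41.6% of the gain and 75.9% of the loss with TMM scaling, but 64% and 61% with library size alone. When fasted 8-day replicate 2 was left out of the calls but kept in the shares, they made up 58% and 80.3%. The risen remaining features held 6.87%, 7.03% and 7.46% of the counts in fed 8-day, 15.5%, 18.6% and 15% in fasted 8-day and 7.91%, 7.65% and 8.03% in fed 28-day libraries. They therefore carried 9.27 of the 22.27 points gained. The fallen remaining features held 20.5%, 20% and 15.4% in fed 8-day, 3.74%, 4.07% and 3.71% in fasted 8-day and 12.9%, 15% and 10.3% in fed 28-day libraries, which is -14.78 of the -19.47 points. Because the position of the fed 28-day libraries defines the remaining features, their levels in those libraries, like those of the other features, follow from that choice. The 3091 risen features that did not remain held 22.4% ± 0.353 in fasted 8-day and 21.6% ± 1.31 in fed 28-day libraries (mean ± SD, n = 3), against 9.38% ± 0.538 in fed 8-day ones. The 2494 fallen features that did not remain held 2.31% ± 0.132, 2.02% ± 0.113 and 7% ± 0.0472 in the same order. In the libraries of fish fasted for 28 days, whose levels were not compared to choose the remaining features but which entered the filter, scaling and dispersion of the fit, the risen ones held 16.1% to 18.4% and the fallen ones 3.67% to 5.14%. The fasting effect itself differed between 8 and 28 days by edgeR's test of the difference in 14.4% of all tested features, in 47.8% of the risen and 40% of the fallen ones, and in 19.4% and 18.8% of those that remained. These shares are a description, since the 8-day difference that chose the features is a part of that test, and so are the fed 28-day libraries that chose the remaining ones.

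**Figure D3:**
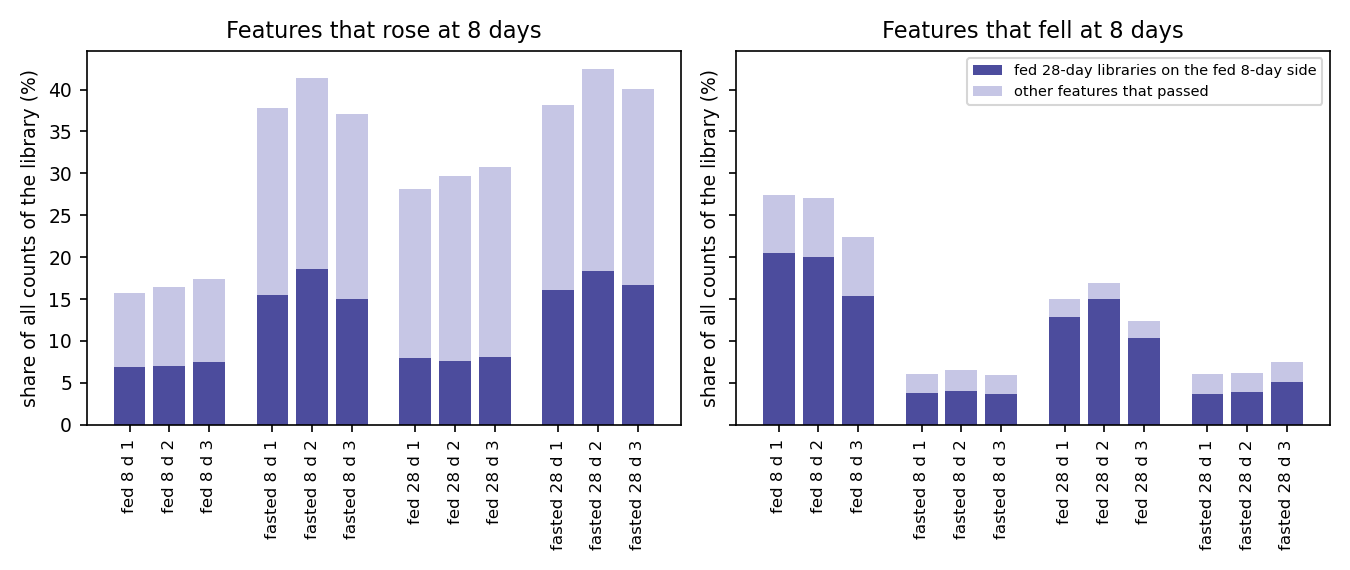
Share of each library's counts (%) held by the features that rose (left) or fell (right) at 8 days, in all 12 libraries, with the remaining features in dark and the others in light colour. The split into dark and light uses the position of the fed 28-day libraries and so fixes where they lie, with the light part of the risen bars at means of 21.6% in fed 28-day and 22.4% in fasted 8-day libraries.

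Of the 10 features that gained the most counts, 5 remained, near the 50.9% of all risen features over 1000 CPM. The largest gain, 2.787 points, was in a feature of 4291 nucleotides that did not remain. It stood at 14100, 15000 and 15400 CPM in fed 8-day, 48600, 32800 and 47600 CPM in fasted 8-day and 41300, 42400 and 42500 CPM in fed 28-day livers, so that fed 28-day and fasted 8-day libraries overlapped. A feature of 3492 nucleotides in this list was even higher in fed 28-day fish, at 16800 to 23300 CPM, than in fasted 8-day fish, at 12400 to 16100 CPM, and was at 6180 to 8230 CPM in fed 8-day fish. A feature of 2222 nucleotides showed the opposite order, with 1020 to 2820 CPM in fed 28-day, 1930 to 4030 CPM in fed 8-day and 5200 to 13900 CPM in fasted 8-day fish. The 10 had log2 fold changes of 0.91 to 2.

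The risen features with the largest gain among those that remained were TRINITY_DN14958_c1_g3_i5_1 and TRINITY_DN14570_c0_g1_i1_4. TRINITY_DN14958_c1_g3_i5_1 (3455 nucleotides) had 3650, 3710 and 4330 CPM in fed 8-day, 17400, 15300 and 14100 CPM in fasted 8-day and 7140, 8640 and 7920 CPM in fed 28-day livers. Every fasted library lay above every fed one, and the fed 28-day libraries lay between the 8-day groups. Its log2 fold change was 2 ± 0.18 (SE; edgeR adjusted p = 2.47e-05, n = 3 and 3), and against fed 28-day fish it was 0.98 (adjusted p = 0.00709). TRINITY_DN14570_c0_g1_i1_4 (3300 nucleotides) had 8850, 8550 and 10700 CPM in fed 8-day, 16200, 13900 and 25600 CPM in fasted 8-day and 13200, 11800 and 11500 CPM in fed 28-day livers. Here the lowest fasted value and the highest fed 28-day value were close. The log2 fold change was 0.99 ± 0.21 (edgeR adjusted p = 0.00517), and it was 0.61 against fed 28-day fish, where it did not pass (edgeR adjusted p = 0.102). Its assembly locus held 3 tested features, between which reads may have been shared.

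**Figure D4:**
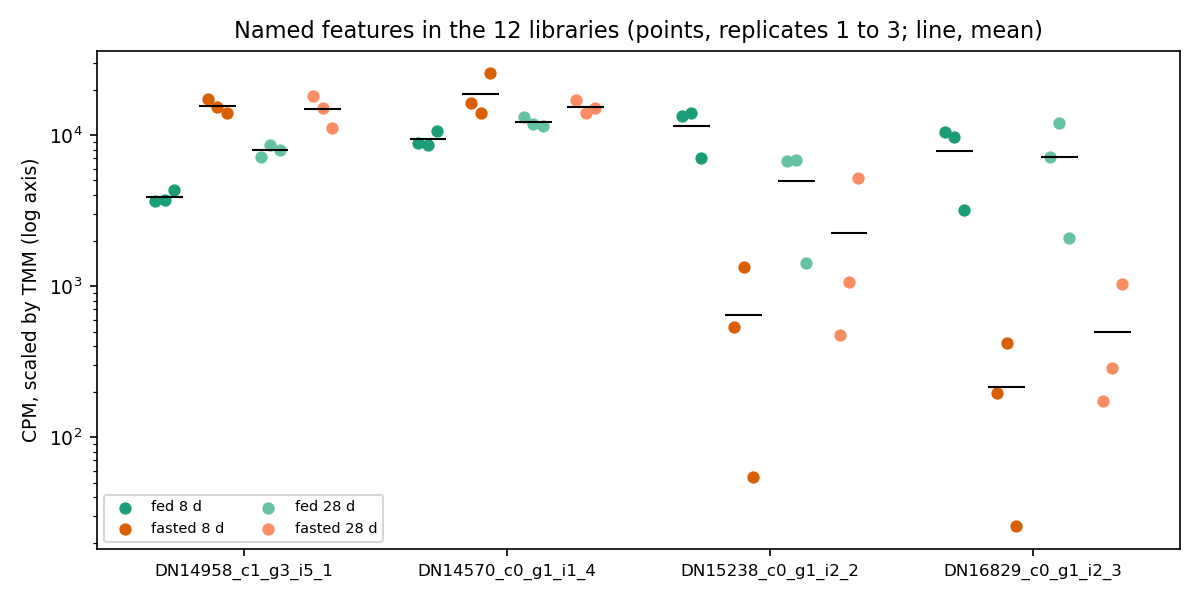
CPM (log axis) of the 4 named features in each library, with points for replicates 1 to 3 from left to right and a line for the group mean. The pair on the left rose and the pair on the right fell, and in the fallen pair the replicates of a group differ widely, as from 25.7 to 421 CPM in fasted 8-day fish for TRINITY_DN16829_c0_g1_i2_3.

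Of the 10 features that lost the most counts, all 10 remained, as did 19 of the first 20. This was near the share of their abundance class, since 90.3% of all fallen features over 1000 CPM remained. Among non-overlapping features of that class lower in fasted fish, passed or not, the fed 28-day libraries lay on the fed side in 79.1%. The largest losses were in TRINITY_DN15238_c0_g1_i2_2 and TRINITY_DN16829_c0_g1_i2_3. TRINITY_DN15238_c0_g1_i2_2 (1026 nucleotides) had 13400, 14000 and 7020 CPM in fed 8-day, 539, 1340 and 54.6 CPM in fasted 8-day and 6750, 6810 and 1420 CPM in fed 28-day livers. The 8-day groups were far apart, whereas the lowest fed 28-day library, replicate 3, came close to the highest fasted one. The TMM factors of these libraries were 0.917 and 1.202. With library size alone their order turns, so whether this feature remained depended on the scaling. The log2 fold change was -4.15 ± 1.18 (edgeR adjusted p = 0.0244) and did not pass against fed 28-day fish, at -2.95 (edgeR adjusted p = 0.143). It also missed the threshold without fasted 8-day replicate 1 (edgeR adjusted p = 0.076) and without fed 8-day replicate 1 or 2 (0.0525 and 0.0534), over a range of 0.0119 to 0.143 in the alternatives that gave a value. The assembly locus of this feature held 2 tested features, between which reads may have been shared. TRINITY_DN16829_c0_g1_i2_3 (1578 nucleotides) had 10400, 9730 and 3210 CPM in fed 8-day, 195, 421 and 25.7 CPM in fasted 8-day and 7130, 12100 and 2090 CPM in fed 28-day livers. Every fed library of either day lay well above the fasted 8-day range. Its log2 fold change was -5.19 ± 1.13 (edgeR adjusted p = 0.00643), and -5.05 against fed 28-day fish (edgeR adjusted p = 0.0202).

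The 24 features over 1000 CPM that fell by 8-fold or more formed a large block of the fed liver's RNA. Together they held 10.6%, 10.1% and 5.13% of the counts in fed 8-day libraries, 0.199%, 0.509% and 0.0594% in fasted 8-day libraries and 5.04%, 6.92% and 2.37% in fed 28-day libraries. Every fasted 8-day library lay far below every fed library of either day. In the fasted 28-day libraries the 24 features held 0.178%, 0.389% and 1.45%. Their lengths ran from 342 to 7616 nucleotides, their log2 fold changes from -3.34 to -9.74, and 23 of the 24 remained. Of all fallen features over 1000 CPM, 90.3% remained. Against the fed 28-day group, 17 of the 24 passed edgeR's test, which called 4.44% of all tested features lower. That comparison uses the same fasted 8-day libraries by which the 24 were chosen, so it is no independent check.

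Most of these steeply fallen features also varied together between replicates. In 16 of the 24, replicate 3 was the lowest library of the fed 8-day, fasted 8-day and fed 28-day groups, fasted 8-day replicate 2 the highest of its group and fasted 28-day replicate 3 the highest of its group. That order was noticed in these data, and it held for 115 of the 6921 features at 10 CPM or more (1.66%). Among these 115 features, which include the 16, 62 had fallen and 19 had risen. In the classes from 10 CPM upward 18.2% to 33.9% of all tested features fell and 25.1% to 33.5% rose. The 115 thus held more fallen and fewer risen features than any of these classes, though the order was not confined to fallen features. None of the 57 risen features over 1000 CPM had it, where a share of 1.66% would give few. The 16 held 8.06%, 7.65% and 2.74% of the counts in the fed 8-day libraries, 0.149%, 0.468% and 0.0213% in the fasted 8-day libraries and 3.85%, 5.71% and 1.17% in the fed 28-day libraries. In fish fasted for 28 days they held 0.142%, 0.355% and 1.4%, so that the highest of these libraries lay above the lowest fed 28-day library. They were 679 to 1922 nucleotides long, and both named fallen features belong to them. The other 8 had a summed share that varied little within groups, at 2.38% to 2.54% of the counts in fed 8-day, 0.0381% to 0.0507% in fasted 8-day and 1.19% to 1.22% in fed 28-day libraries. Single members of the 8 varied more, such as a feature of 1563 nucleotides with 5420, 5020 and 1720 CPM in the fed and 43.9, 33.8 and 7.73 CPM in the fasted 8-day libraries. All 8 had edgeR adjusted p-values of at most 0.000743, against 0.0014 to 0.0444 for the 16. Without fasted 8-day replicate 1, 9 of the 16 passed the test, and 12 passed without fed 8-day replicate 1 or 2, while all 8 others passed in each of these fits. The 16 were split from the other 8 by replicate order in these same libraries. A wider spread within groups, larger p-values and fewer passes may follow in part from that split. What sets the replicates apart in these 16 features was not tested.

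**Figure D5:**
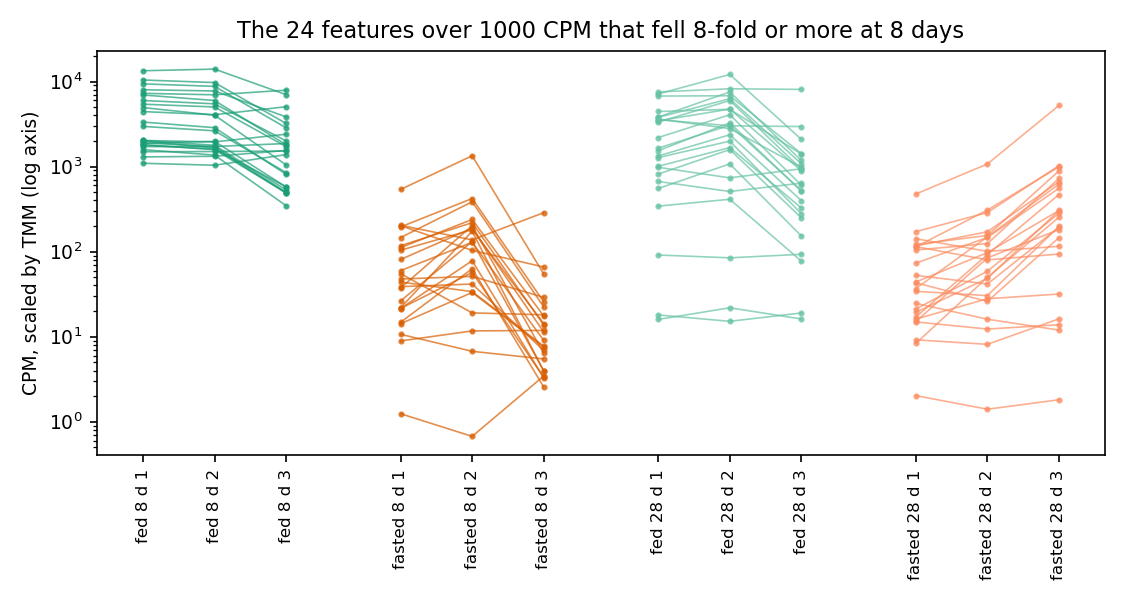
CPM (log axis) of the 24 features over 1000 CPM that fell 8-fold or more in fasted 8-day fish, where each line joins the replicates of 1 feature within a group and colours mark the groups. Most lines bend alike, with replicate 3 low in the fed 8-day, fasted 8-day and fed 28-day groups and high in the fasted 28-day group.

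Presence or absence in a group accounted for few of the changes. No fed 8-day library had a count for 369 of the risen features, which reached a median of 1.07 CPM in fasted fish, and the median of their lower bounds was 6.69-fold. The fed 28-day libraries had a median of 0.899 CPM for the same features, 16 of the 369 had no count there either, and 66 remained. No fasted 8-day library had a count for 189 of the fallen features, which had a median of 2.44 CPM in fed 8-day fish and a median lower bound of 15.4-fold. In fed 28-day fish the median was 0.246 CPM, 54 of the 189 had no count there, and 51 remained. At this depth a library without a count can hold up to 3 counts, which is 0.151 to 0.178 CPM in the 8-day libraries other than fasted replicate 2, where it is 0.126 CPM, and this covers counting error only.

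Changed features had a longer median length than tested features as a whole. The median length was 1352 nucleotides for risen, 1267 for fallen and 760 for all tested features, and 1369 and 1356 for the risen and fallen features that remained. Longer features had more counts, with a median of 0.686 CPM in fed 8-day fish under 400 nucleotides and 8.31 CPM from 2000 nucleotides upward. The directions differed with length. From 1000 to 2000 nucleotides 15.3% rose and 20.1% fell, and from 2000 nucleotides upward 30.4% rose and 19% fell. Within the 10 to 100 CPM class the same turn was seen, with 20.4% risen and 40% fallen from 1000 to 2000 nucleotides and 35.4% risen and 28% fallen in longer features.

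The last number of the identifier, from 1 to 4, went with the direction of change. No label explains what it stands for. Of the features ending in 1, 20.8% rose and 6.18% fell. For those ending in 2, these shares were 20.1% and 4.34%, and for those ending in 3 they were 10.5% and 10.5%. Of the features ending in 4, 3.71% rose and 28.6% fell. The imbalance was not limited to features that passed. Over all tested features the median log2 fold change was 0.7, 0.68, 0.11 and -0.9 for numbers 1 to 4. The direction of the imbalance for numbers 1, 2 and 4 was the same in all 20 alternatives with the 8-day control. With the fed 28-day group as control it turned for numbers 1 and 2, where 173 and 227 features rose and 296 and 315 fell. Among the remaining features the imbalance was weaker for number 1, with 5.28% risen and 3.16% fallen, and persisted for number 4, with 0.974% risen and 10.2% fallen. The shares of counts did not follow the calls in each case. Number 1 held 26.8% ± 0.677 of the counts in fed and 32% ± 1.95 in fasted 8-day fish, and number 2 held 18.9% ± 0.229 and 18.2% ± 0.558 (mean ± SD, n = 3). Number 3, with balanced calls, held 27.7% ± 0.759 and 24.1% ± 1.51, and number 4 held 26.5% ± 0.445 and 25.8% ± 0.454. The part of the assembly numbers in the calls was not tested.

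Some assembly loci held features that changed in opposite directions. Of 6508 loci with at least 2 tested features, 567 had 2 or more that passed. In 152 of these the called features all rose, in 125 they all fell, and in 290 some rose and some fell. Since 52.4% of all calls were rises, loci with calls of both directions are common whether or not their features are related, and nothing particular to loci is read from this number. The summed CPM of the features tested at these 290 loci differed by less than 2-fold between fasted and fed 8-day fish in 213, with a median absolute log2 change of 0.65. Loci with both a risen and a fallen feature among those that remained numbered 32. The number of loci with both directions was 177 to 182 without any single fed 8-day replicate and 191 without fasted 8-day replicate 1, out of 350 to 382 loci with at least 2 calls in those fits. Since reads that match several features of a locus may have been shared between them, values of single features at such loci are uncertain.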

How the data were processed

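Liver RNA of 12 samples was read as stranded mRNA libraries, per the labels' protocols. Reads were handled with Trimmomatic and Bowtie2, per the submitters' processing notes, and no source used here names the assembler, the abundance program or an annotation. The authors deposited estimated counts, which are not whole, and FPKM values (fragments per kilobase of feature, relative to library size) for 42353 features. Counts over FPKM gave each feature's length, whole within 0.02 nucleotides for 100% of features. Columns were matched to samples by group code and replicate number.

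Estimated counts were rounded to whole numbers. filterByExpr left out 10141 features, and edgeR 4.0.16 under R 4.3.3 fitted 4 group means to 12 libraries (TMM scaling, robust quasi-likelihood F test). The procedure was also run on counts simulated from that fit, with an outcome not given here. P-values were adjusted over all 32212 features. SEs were derived from the F statistic and are approximate. Named features are the 2 risen and 2 fallen with the largest change in share of counts among those that passed, did not overlap and remained. The relative position uses log2(CPM + 0.5). The members, rules and lists were chosen with earlier results of these data known. Gene lists and cell markers were not run. Alternatives used RLE, upper-quartile and no scaling, other filters and thresholds, a replicate block, fewer libraries, DESeq2 1.42.0 and limma 3.58.1.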

Additional observations from a re-analysis of the deposited data

Results flagged for a closer look

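The fasting effect, fasted minus fed, differed between 8 and 28 days by edgeR's test of the difference in 2046 of the 4278 risen and 1553 of the 3885 fallen features, against 14.4% of all tested features. Among the features that remained it differed in 230 of the 1187 risen and 261 of the 1391 fallen ones. The test includes the 8-day difference by which risen and fallen features were chosen and the fed 28-day libraries by which the remaining ones were chosen, so these numbers follow in part from those choices. Of the named features, TRINITY_DN14958_c1_g3_i5_1 had a log2 fold change larger by 1.08 at 8 than at 28 days (edgeR adjusted p = 0.015; 0.91 at 28 days), with fasted means of 15600 and 14900 CPM and fed means of 3900 and 7900 CPM at 8 and 28 days.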

How the results depend on the processing

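No direction was reversed for the 4 named features. These were chosen because all their fasted 8-day libraries lay apart from all fed libraries, so a reversal was hardly possible and this is no check either. The 6 summary values are the numbers risen, fallen and remaining, and the shares gained and lost. They are counts, or shares of features chosen by direction in each setting, so their signs were set by that choice and are no check. Numbers risen and fallen were 2506 and 2233 with a filter of 10 CPM in 3 libraries, where 7338 features were tested and 852 fallen features remained. At an adjusted p under 0.01 they were 2376 and 2328, with shares of 19.3 and -14.8 points and 746 risen features remaining. With the fed 28-day group as control they were 1100 and 1430, with 6.1 and -12.8 points. The loss was -22.9 and -22.4 points with limma on log2(FPKM + 1) and log2(FPKM + 0.1). Fits without single libraries gave 3198 to 3975 risen, 2972 to 3952 fallen, 954 to 1333 risen remaining and 1160 to 1650 fallen remaining features, a gain of 19.4 to 22.2 and a loss of -19.8 to -15.8 points. The balance of directions depended on the setting: 52.4% of calls were higher in fasted fish, but 40.8% with limma on log2(FPKM + 1), and among remaining features 46% were higher, but 57% with library size alone. Over all features the median log2 fold change was 0.16, 0.05 with only the 8-day libraries fitted and 0.03 with limma. Loci with both directions numbered 99 at an adjusted p under 0.01 and 108 with the 10 CPM filter. Taken over many features at once, same-numbered fasted and fed 8-day libraries did not deviate together (r = 0, 0.046 and -0.001). Not every library correlated best with its own number. The 24 steeply fallen features over 1000 CPM differed from this. Replicate 3 was lowest in 17 of them in the fed and in 21 in the fasted 8-day group. Among the 6921 features at 10 CPM or more it was lowest in 28.5% and 27%. In the fasted 28-day group replicate 3 was instead the highest in 19 of the 24, against 30% of the 6921. Since 16 of the 24 shared 1 replicate order, these numbers largely repeat 1 pattern, and no pairing is read from them. With the replicate block 3926 features rose and 3712 fell, and 1103 and 1360 remained. DESeq2 gave no adjusted p for TRINITY_DN15238_c0_g1_i2_2. Depth limits features under 1 CPM most.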
